A study of Mus musculus with 6 samples.

Results

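The MAP kinase and serine-threonine phosphatase genes of the embryonic cortex were followed on 6 arrays of 2 colours. The set held every probe whose single gene symbol starts with Mapk, Map2k, Map3k or Map4k, or with Ppp followed by a digit from 1 to 6. This gave 55 probes for 53 genes, out of 6856 probes and 6041 single-symbol genes on the array, with 32 probes for 32 genes of the kinase cascade and 23 probes for 21 phosphatase genes. Of the 55 probes, 53 had a value on at least 1 array, 36 had a value on all 6, and 48 had enough values for the test.

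Each array compared total RNA from the neocortex of a separate null mutant mouse sample with a pool of wild-type neocortex RNA, made from 6 biological replicates. All animals were of C57BL/6 background and embryonic day 14, and the labels describe the mutants as synaptically silent. The mutant was labelled with cy3 on the first 3 replicates and with cy5 on the other 3. No wild-type sample was hybridised on its own: the pool counts as 1 control, the ratio was tested against 0, and variation among wild-type animals does not enter the error.

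MAP kinases are the last step of a relay in which MAP4 kinases act on MAP3 kinases, these activate MAP2 kinases, and the MAP2 kinases phosphorylate a MAP kinase. The ERK, JNK and p38 branches carry growth factor and stress signals, and in developing cortex they are known for roles in neurogenesis, migration and axon growth. PP1, PP2A, calcineurin and their relatives remove phosphates from serine and threonine. Their few catalytic subunits obtain their targets through many regulatory subunits.

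The values are read as log2 ratios, with base 2 assumed. Neither their direction nor whether it is the same on all arrays is given in the sources used here. Signs below are those deposited, and no gene is called higher or lower in the mutants. Each estimate is the mean of both dye orientations. The estimate with replicates 1 to 3 turned is called the turned reading. It is given beside some estimates but not all, and the closing part lists the named probes whose sign it changed. In RNA from whole tissue, fewer cells of a type and less RNA per cell cannot be told apart.

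The arrays held between 4396 and 5678 values. Their standard deviation ran from 0.35 on replicate 2 to 1.09 on replicate 3. Over the probes valued on both, replicates 3 and 4 correlated at r = 0.59 (3875 probes), although the mutant carried different dyes on them. Replicate 3 correlated with the other cy3 arrays at -0.20 (replicate 1) and -0.19 (replicate 2). Replicate 4 correlated at -0.26 and -0.08 with replicates 5 and 6. Replicates 1 and 2 correlated at 0.36 with each other, and replicates 5 and 6 at 0.21. Between these pairs, replicate 1 correlated at 0.06 and -0.05 with replicates 5 and 6, and replicate 2 at 0.05 and -0.07. These correlations are across probes, which are not independent. Where an estimate moved most with replicates 3 and 4, its value without them is given beside it or in the closing part.

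No member passed the test. Of the 48 members fitted, 0 had an adjusted p under 0.05 (limma, Benjamini-Hochberg over all 4958 probes), against a background of 0% of all probes, and the smallest adjusted p of a member was 0.921. Unadjusted, 2 members had a p under 0.05, or 4.17%, Mapk8ip1 and 1 probe of Ppp2r5d, against a background of 1.77%. Under the turned reading 0 members passed, where 0% of all probes did. There 1 member, Mapk9, had an unadjusted p under 0.05, or 2.08%, against 4.6%. The unadjusted shares are counts of 2 and 1 probes and give no result about the members. With the mutant in cy3 alone, 0 of 48 members and 0% of 5056 probes passed. With the mutant in cy5 alone, 0 of 50 members and 0% of 5676 probes passed. Without replicates 3 and 4, 0 of 45 members passed, against 0.0212% of 4728 probes, and the smallest adjusted p of a member was 0.300.

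Among the scaffold genes of the kinase relay, Mapk8ip1 gave the steadiest values as deposited. It encodes JIP1, which holds JNK together with its upstream kinases and links them to kinesin transport. Its ratio was 0.48, 0.30 and 0.56 on the cy3 arrays and 0.43, 0.35 and 0.47 on the cy5 arrays. All 6 values were positive as deposited, and those of both dye orientations overlapped. The estimate was 0.43 ± 0.11 (SE, n = 6; limma adjusted p = 0.921), the eighth smallest unadjusted p of all probes tested. It stood at 0.40 without replicates 3 and 4, and between 0.40 and 0.47 when each replicate was left out in turn. Under the turned reading the estimate was -0.02 ± 0.11 (SE, n = 6; limma adjusted p = 0.993), since the values of both orientations then cancel.

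The spread of Mapk8ip1 over the arrays was small as deposited. With replicates 1 to 3 turned, Mapk8ip1 would have 3 negative and 3 positive values, so the small spread holds only for the deposited signs. Its standard deviation was 0.10, and 0.505% of the 3763 probes with 6 values had a smaller one. On replicate 3, the widest array, its value lay at percentile 75.3 of the array's probes, and on replicate 1 at percentile 94.0. Of the members with 6 values, 1 varied less, Ppp1r3f, which lay near 0.

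Its family members did not share this pattern. Mapk8ip2, the neuronal scaffold JIP2, lay at -0.01, 0.16 and -0.69 in cy3, meaning arrays with the mutant in that dye, and at -0.52, 0.18 and -0.11 in cy5. Mapk8ip3, or JIP3, which couples JNK and cargo to axonal transport motors, lay at 0.25, 0.15 and -1.03 in cy3 and at -0.54, 0.12 and 0.02 in cy5. Both were lowest on replicates 3 and 4 and at most 0.25 from 0 elsewhere. Their estimates were -0.17 ± 0.16 and -0.17 ± 0.20 (SE, n = 6), or 0.02 and 0.04 under the turned reading, and 0.05 and 0.14 without replicates 3 and 4.

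On each of the 6 arrays Mapk8ip1 lay above both relatives, a description with no test, since this gene was singled out from its values. The difference from Mapk8ip2 ran from 0.14 on replicate 2 to 1.26 on replicate 3. The difference from Mapk8ip3 ran from 0.15 on replicate 2 to 1.60 on replicate 3. On replicates 1, 2, 5 and 6 the differences were at most 0.59, so the largest ones came from the 2 arrays on which the relatives were low. With replicates 1 to 3 turned, the differences would be negative on 3 arrays and positive on 3.

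**Figure D1:**
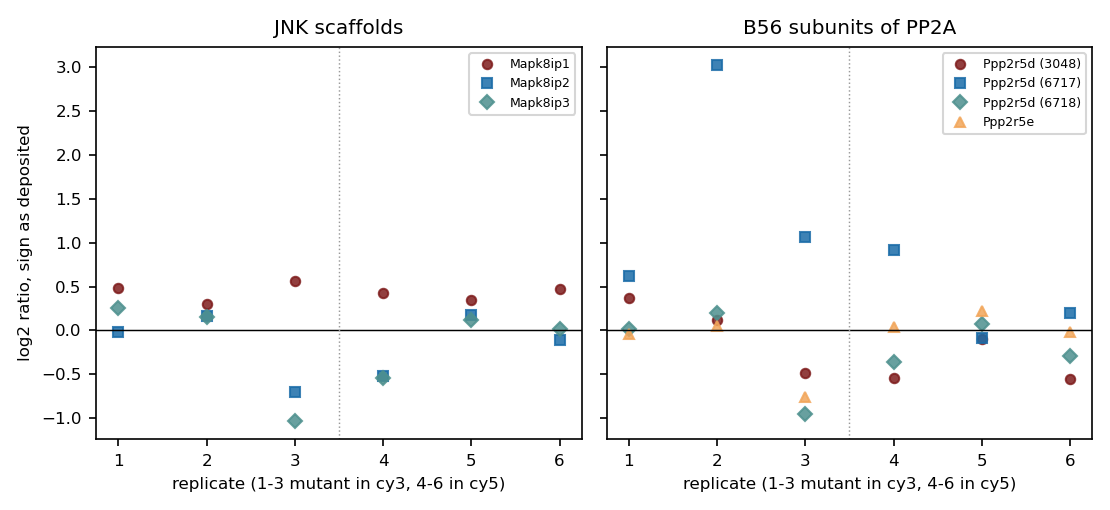
Log2 ratio as deposited (vertical axis) on each replicate (horizontal axis, mutant in cy3 left of the dotted line and in cy5 right of it) for the JNK scaffold genes and for the B56 probes of PP2A, 1 point per array. Mapk8ip1 sits between 0.30 and 0.56 on all arrays, and probe 6717 of Ppp2r5d reaches 3.03 on replicate 2 while the other probes of that gene reach at most 0.37.

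Other kinases and partners that bind MAP kinases had wider values. Mapkapk2, a kinase that p38 activates and that stabilises short-lived mRNAs, lay at -0.31, 0.23 and 1.02 in cy3 and at 1.58, 0.15 and 0.56 in cy5. It was highest on replicates 3 and 4, and its estimate of 0.54 ± 0.24 (SE, n = 6) fell to 0.16 without them. Mapkbp1, a JNK-binding protein, lay at -0.14 and -0.12 on its cy3 arrays, replicates 1 and 2. Replicates 5 and 6 gave 0.39 and 0.33, and the others had no value. Mapkapk5 had 1 value, -0.68 on replicate 1.

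The JNK genes differed from each other. Mapk9, which encodes JNK2, lay at 0.59 and 0.53 on replicates 1 and 2. The cy5 arrays gave -0.27, -0.31 and -0.08. Values of the 2 orientations did not overlap, and replicate 3 had none. The estimate was 0.17 ± 0.13 (SE, n = 5; limma adjusted p = 0.921) as deposited and -0.39 ± 0.13 (SE, n = 5; limma adjusted p = 0.972) under the turned reading. Mapk8, or JNK1, had 4 values, -0.86 on replicate 2, 2.03 on replicate 3, and -0.92 and -0.60 on replicates 5 and 6. Its estimate of -0.09 ± 0.48 (SE, n = 4) rests on replicate 3, the only positive value. Mapk8 had too few values to be fitted without replicates 3 and 4. Under the turned reading the estimate was -0.67. Mapk10, or JNK3, the JNK of neurons, lay at -0.70, 0.16 and 0.21 in cy3 and at 0.67, -0.12 and 0.86 in cy5, with an estimate of 0.18 ± 0.19 (SE, n = 6), or 0.29 when turned. The Mapk10 estimate was 0.049 without replicates 3 and 4 and 0.083 without replicate 6.

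The p38 genes showed no common direction. Mapk14, the main p38 of most tissues, lay at 0.0001, 0.03 and -0.56 in cy3 and at -0.20, 0.38 and 0.33 in cy5. Mapk11, or p38 beta, had -0.04 and -0.13 on replicates 1 and 2, and the cy5 arrays gave 0.17, 0.66 and 0.47. Its groups did not overlap, and its estimate was 0.17 ± 0.14 as deposited and 0.26 ± 0.14 when turned (SE, n = 5). Mapk12, or p38 gamma, ran from -0.89 on replicate 2 to 0.93 on replicate 4, with 3 positive values and 3 negative ones. Mapk13 had no value.

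The remaining MAP kinases were atypical or large members of the family. Mapk7, or ERK5, ran from -0.96 on replicate 5 to 2.63 on replicate 3, the highest kinase value of all arrays, and was negative on replicates 1, 2 and 5. Without replicates 3 and 4 its estimate moved from 0.16 ± 0.45 to -0.49. Under the turned reading the estimate was -0.29. Mapk6, or ERK3, lay at 0.32, 0.07 and -1.02 in cy3 and at -0.77, 0.05 and 0.01 in cy5. Low values were again on replicates 3 and 4, and the estimate moved from -0.23 to 0.11 without them. Over the 8 MAP kinases fitted, 4 estimates were positive and 4 negative, with a median of 0.08, against -0.03 over all probes.

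The 4 MAP2 kinases fitted had 1 positive and 3 negative estimates, and all 4 were positive without replicates 3 and 4. Over all probes, 43.3% of estimates were positive as deposited and 62.6% without replicates 3 and 4. Map2k1, or MEK1, the activator of ERK, was at 0.05, 0.03 and 0.11 in cy3 and at -0.43, 0.17 and 0.07 in cy5, positive on 5 of 6 arrays. Map2k4, which activates JNK and p38, was at 0.27, 0.01 and 0.04 in cy3 and at -0.48, -0.12 and -0.15 in cy5. Its orientations did not overlap, and the estimates were -0.07 ± 0.11 as deposited and -0.18 ± 0.11 when turned (SE, n = 6). Map2k5, the activator of ERK5, ran from -0.20 on replicate 4 to 0.47 on replicate 5. Map2k6, an activator of p38, ran from -0.75 on replicate 4 to 0.78 on replicate 6. Map2k3, also an activator of p38, had 3 values, 0.22, -0.67 and 0.39 on replicates 2, 5 and 6, and was not fitted.

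Of the 8 MAP3 kinases fitted, 2 had positive and 6 negative estimates as deposited. Under the turned reading 6 had positive ones, and 5 of 7 were positive without replicates 3 and 4. The positive shares over all probes were 43.3% as deposited, 53.0% turned and 62.6% without replicates 3 and 4. Map3k1, an activator of the JNK branch, lay at 0.14, -0.08, 0.31 and 0.35 on replicates 1, 2, 5 and 6. Map3k7, or TAK1, which carries TGF-beta and cytokine signals, ran from -0.54 on replicate 4 to 0.18 on replicate 5. Map3k8, or TPL2, a kinase upstream of ERK, had -1.14 on replicate 3 and -0.41 on replicate 4 and lay at most 0.21 from 0 on the other arrays. Map3k2 and Map3k4 are examples of a split between dyes: Map3k2 stood at -0.71 and -0.37 in cy3 and at 0.10 and 0.54 in cy5. Map3k4 had -0.25 and -0.09 in cy3 and -0.49, 0.48 and 0.41 in cy5, so that replicate 4 broke the split.

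Map3k3 and Map3k14, the latter a kinase of the alternative NF-kappaB pathway, were lowest on replicate 3, at -1.09 and -0.68. Map3k5, or ASK1, a kinase of oxidative stress, ran from -0.30 to 0.71 over 4 values. Map3k20 had 1 value, 0.21 on replicate 1, and Map3k6 had none. Of the MAP4 kinases, Map4k1, known from blood cells, had 4 values, all positive, at 0.24, 0.99, 0.14 and 0.37 on replicates 1, 3, 5 and 6. Its estimate was 0.43 ± 0.19 (SE, n = 4), or -0.18 when turned. Map4k1 had too few values to be fitted without replicates 3 and 4. Map4k4 lay at most 0.15 from 0 on 5 arrays and at -0.98 on replicate 3.

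**Figure D2:**
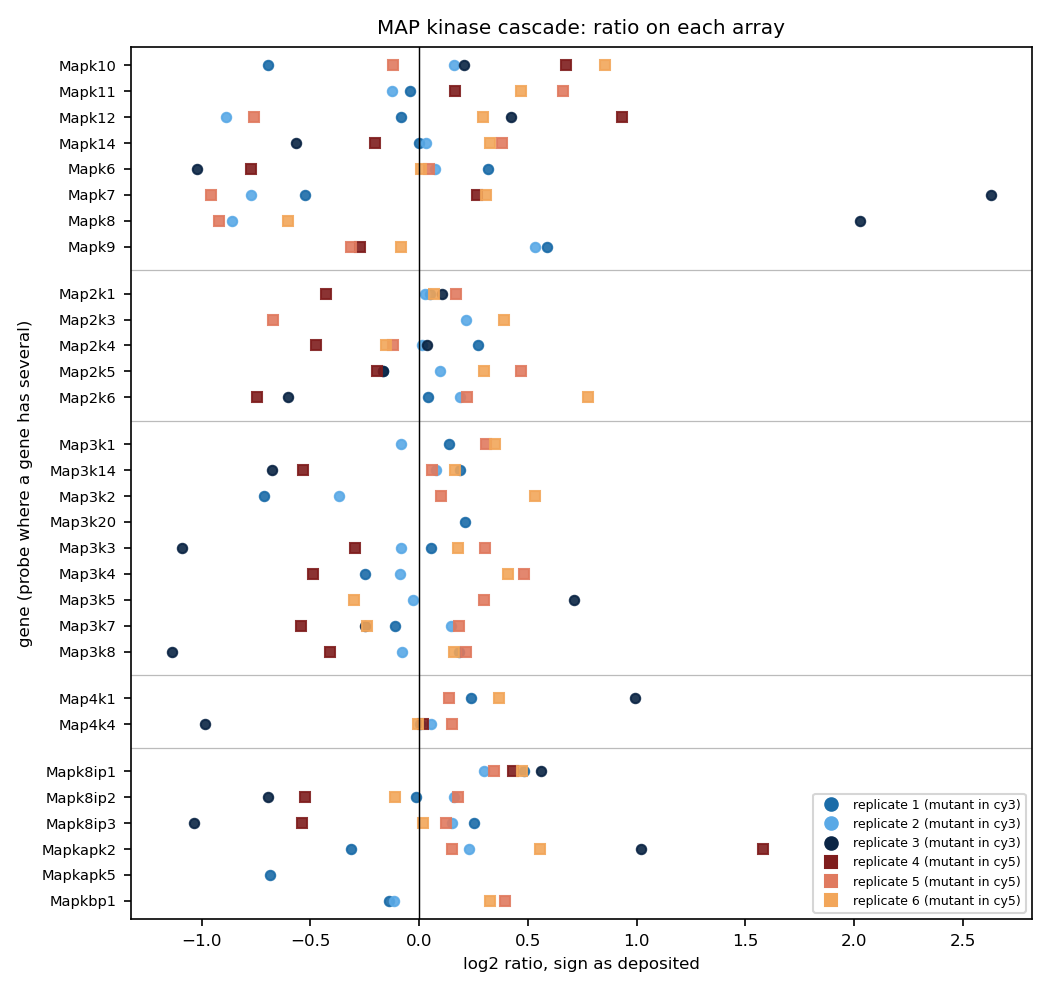
Log2 ratio as deposited (horizontal axis) for each gene of the kinase relay (vertical axis, grouped by role), with 1 point per array, circles for the mutant in cy3 and squares for the mutant in cy5. Mapk8ip1 has all points between 0.30 and 0.56, Mapk7 and Mapk8 reach 2.63 and 2.03 on replicate 3, and most genes have points on both sides of 0.

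The catalytic subunits of the phosphatases leaned to the negative side as deposited, most on replicates 3 and 4 and less on replicate 6. All 10 were fitted, 9 with a negative and 1 with a positive estimate, where 43.3% of all probes were positive. The median was -0.19, against -0.03 over all probes. Their median on replicates 1 to 6 was 0.11, 0.10, -0.79, -0.37, 0.0033 and -0.21. Over all probes tested it was 0.06, 0.05, -0.30, -0.13, 0.05 and -0.02. Without replicates 3 and 4, 5 estimates were positive and 5 negative, where 62.6% of all probes were positive. The median was then 0.0043, against 0.04 over all probes. Under the turned reading 4 were positive and 6 negative, where 53.0% of all probes were positive. None passed.

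For PP1, Ppp1cb lay at 0.19, 0.05 and -1.28 in cy3 and at -0.80, 0.16 and -0.0021 in cy5. Ppp1cc was alike, at 0.17, 0.13 and -1.17 in cy3 and at -0.51, 0.08 and 0.10 in cy5. Ppp1ca differed from both, with 0.41 on replicate 4 and -0.50 on replicate 6, beside -0.55 on replicate 3. The estimates were -0.28 ± 0.23, -0.20 ± 0.21 and -0.03 ± 0.17 for Ppp1cb, Ppp1cc and Ppp1ca (SE, n = 6).

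The catalytic subunits of PP2A went opposite ways on replicate 3. Ppp2ca lay at -0.26, -0.03 and 0.97 in cy3 and at 0.77, -0.0027 and -0.72 in cy5. Ppp2cb lay at 0.23, 0.21 and -0.95 in cy3 and at -0.24, -0.02 and -0.34 in cy5. Ppp2ca was the 1 catalytic subunit with a positive estimate, 0.12 ± 0.24 (SE, n = 6), and this turned to -0.25 without replicates 3 and 4.

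Calcineurin, the phosphatase that calcium and calmodulin activate, was measured through its 3 catalytic genes. Ppp3ca, the main form of neurons, lay at 0.08, 0.21 and -0.19 in cy3 and at -0.10, -0.22 and -0.23 in cy5, and varied little, with a standard deviation of 0.18. Ppp3cb was at 0.18, 0.06 and -0.79 in cy3 and at -0.51, 0.09 and -0.21 in cy5. Ppp3cc ran from -0.21 to 0.11 over 5 values. Ppp5c, a phosphatase bound to the chaperone Hsp90, lay within 0.10 of 0 on replicates 1, 2, 5 and 6 and at -1.52 and -0.65 on replicates 3 and 4. Its estimate of -0.35 ± 0.23 (SE, n = 6) was 0.01 without them. Ppp4c was positive on 1 of 6 arrays, at 0.09 on replicate 2, and had an estimate of -0.25 ± 0.14 (SE, n = 6), or -0.08 without replicates 3 and 4.

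The probes of the B56 regulatory subunits of PP2A, which direct it to its substrates, disagreed with each other. Ppp2r5d, the B56 delta gene, had 3 probes. Probe 6717 lay at 0.63, 3.03 and 1.06 in cy3 and at 0.91, -0.09 and 0.20 in cy5, positive on 5 of 6 arrays. Its estimate was 0.96 ± 0.32 (SE, n = 6; limma adjusted p = 0.921), or -0.61 ± 0.32 under the turned reading (limma adjusted p = 0.972). It fell to 0.59 without replicate 2.

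The other probes of Ppp2r5d did not share the excess. Probe 3048 lay at 0.37, 0.12 and -0.49 in cy3 and at -0.55, -0.10 and -0.55 in cy5, with an estimate of -0.20 ± 0.15 (SE, n = 6). This was -0.079 without replicate 3 and -0.043 without replicates 3 and 4. Probe 6718 lay at 0.02, 0.20 and -0.95 in cy3 and at -0.36, 0.08 and -0.29 in cy5, with an estimate of -0.22 ± 0.18 (SE, n = 6), or 0.0014 without replicates 3 and 4. These 2 had the same sign on 5 of 6 arrays and differed by at most 0.46. Probe 6717 had the same sign as 3048 on 3 arrays and as 6718 on 2, and differed from them by up to 2.91 and 2.82. Among the 92 probe pairs of 74 genes with 2 to 4 probes in the test, the median of the largest difference on an array was 0.84, and 90% of pairs lay under 2.32. Which transcript each probe measures was not tested.

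Averaged over its 3 probes, Ppp2r5d had an estimate of 0.18. Ppp2r5e, the B56 epsilon gene, was at -0.04, 0.05 and -0.76 in cy3 and at 0.04, 0.23 and -0.02 in cy5, with an estimate of -0.08 ± 0.14 (SE, n = 6), or 0.17 when turned. Ppp2r1a, the scaffold subunit that carries the catalytic and regulatory subunits, was negative on 5 of 6 arrays, from -0.57 on replicate 3 to 0.04 on replicate 2. Ppp2r3c, another regulatory subunit, ran from -1.20 on replicate 3 to 0.53 on replicate 1.

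The regulators of PP1 ranged from wide to narrow values. Ppp1r1b encodes DARPP-32, an inhibitor of PP1 best known from striatal neurons. It lay at -1.24 and 0.04 in cy3 and at 2.20, 0.35 and -0.18 in cy5. Its estimate was 0.09 ± 0.39 (SE, n = 5), -0.26 without replicates 3 and 4, and 0.69 when turned. Ppp1r1a, the related inhibitor 1, had -1.03 and -0.53 on replicates 3 and 4 and lay within 0.22 of 0 elsewhere. Ppp1r3c, which brings PP1 to glycogen, lay at -0.38, 0.19 and 0.46 in cy3 and at -0.17, -0.11 and -1.98 in cy5. Its estimate of -0.33 ± 0.27 (SE, n = 6) was -0.03 without replicate 6 and -0.57 without replicates 3 and 4.

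Ppp1r3f, another glycogen-targeting subunit, stayed within 0.15 of 0 on all 6 arrays, and Ppp1r13b, a partner of p53, ran from -0.45 to 0.52 over 5. Ppp1r15a, the GADD34 gene, which restores translation after stress, had 0.01, 0.04 and 0.10 on replicates 2, 5 and 6. Ppp1r17, known from cerebellar Purkinje cells, had 1 value, 5.30 on replicate 3, the largest of any member and without a second array to set beside it.

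**Figure D3:**
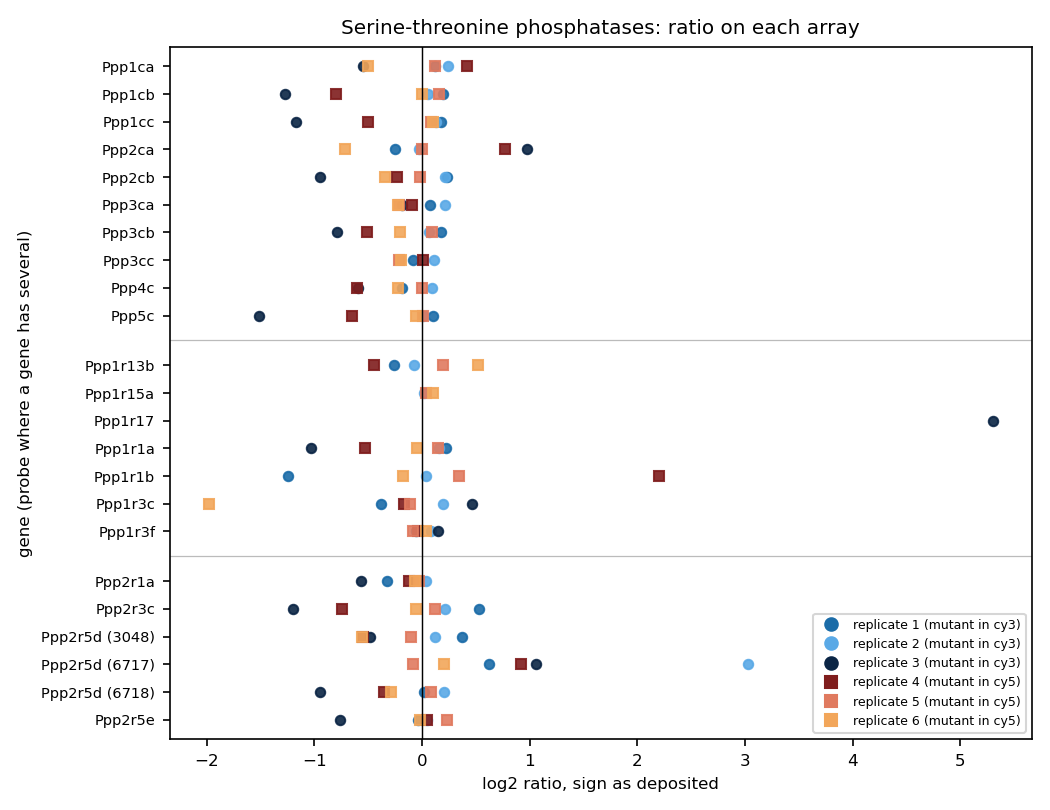
Log2 ratio as deposited (horizontal axis) for each phosphatase gene (vertical axis, with the probe in brackets where a gene has several), 1 point per array, circles for the mutant in cy3 and squares for the mutant in cy5. Dark points of replicates 3 and 4 lie left of the others for Ppp1cb, Ppp1cc, Ppp3cb and Ppp5c, while Ppp1r17 has a single point at 5.30.

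Members with 1 sign on every array, given at least 5 values, depended on the reading. As deposited, 1 of 42 members, or 2.38%, had 1 sign, Mapk8ip1, against a background of 1.87%. Under the turned reading 3 of 42, or 7.14%, had 1 sign, Mapk9, Mapk11 and Map2k4, against 5.29%. These shares are counts of 1 and 3 probes and give no result about the members.

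**Figure D4:**
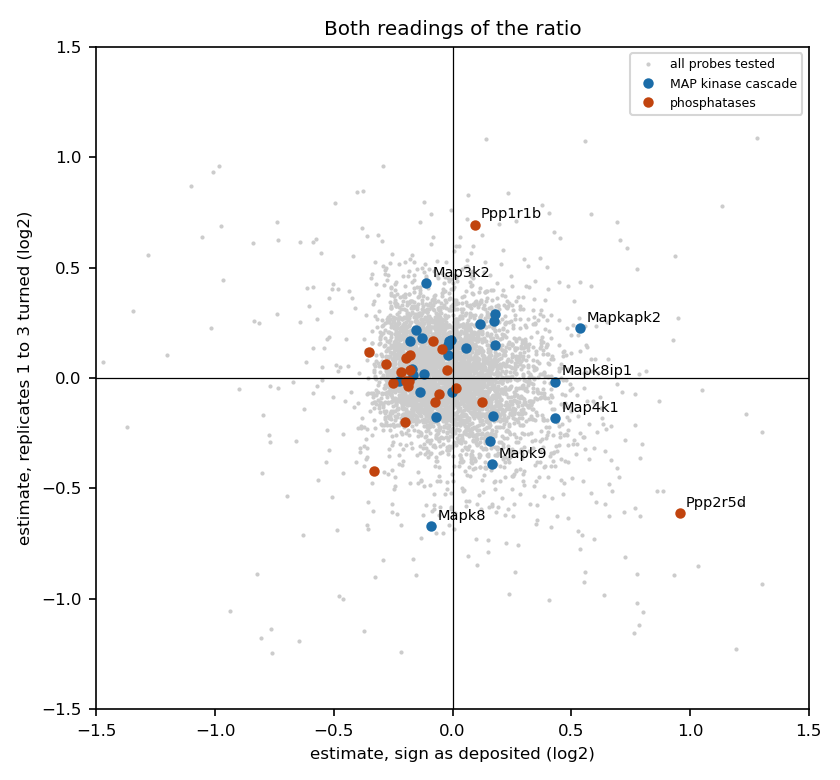
Estimate as deposited (horizontal axis, log2) against the estimate with replicates 1 to 3 turned (vertical axis, log2) for the 48 members fitted, over all probes tested in grey; 8 grey probes lie outside the axes. Mapk8ip1 and probe 6717 of Ppp2r5d lie to the right at 0.43 and 0.96, and Mapk9 and Mapk8 lie low at -0.39 and -0.67.

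The members' values on replicates 3 and 4 were set beside those of all probes. Of 36 members with a value on both, 22 were negative on both, or 61.1%, against 52.2% of 3875 probes. Below -0.5 on both were 12 members, or 33.3%, against 14.6% of all probes. These were Map2k6, Map3k14, Mapk6, Mapk8ip2, Mapk8ip3, Ppp1cb, Ppp1cc, Ppp1r1a, Ppp2r3c, Ppp3cb, Ppp4c and Ppp5c. Of them, 9 lay at most 0.25 from 0 on the other 4 arrays. Map2k6, Mapk6 and Ppp2r3c reached 0.78, 0.32 and 0.53 in size there. The share of all probes within 0.25 was not counted. At a limit of 0.5, 29 of 45 members, or 64.4%, stayed within it on those 4 arrays, against 68.7% of 4728 probes. Small values there were thus common and do not set the members apart. Above 0.5 on both replicates 3 and 4 were 3 members, or 8.33%, against 11.3%. These were Mapkapk2, Ppp2ca and probe 6717 of Ppp2r5d.

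The median of the fitted members was -0.56 and -0.28 on replicates 3 and 4, where that of all probes tested was -0.30 and -0.13. On replicates 1, 2, 5 and 6 it was 0.03, 0.07, 0.12 and 0.0029, against 0.06, 0.05, 0.05 and -0.02. The count of members with a positive estimate followed these arrays. It was 15 of 48, or 31.2%, with all arrays, against 43.3% of all probes. It was 20 of 48, or 41.7%, with arrays centred on their median, against 49.2%, and 31 of 45, or 68.9%, without replicates 3 and 4, against 62.6%. Array weights gave 28 of 48. The part of these 2 arrays in each estimate can be read from the values, and what sets them apart was not tested.

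**Figure D5:**
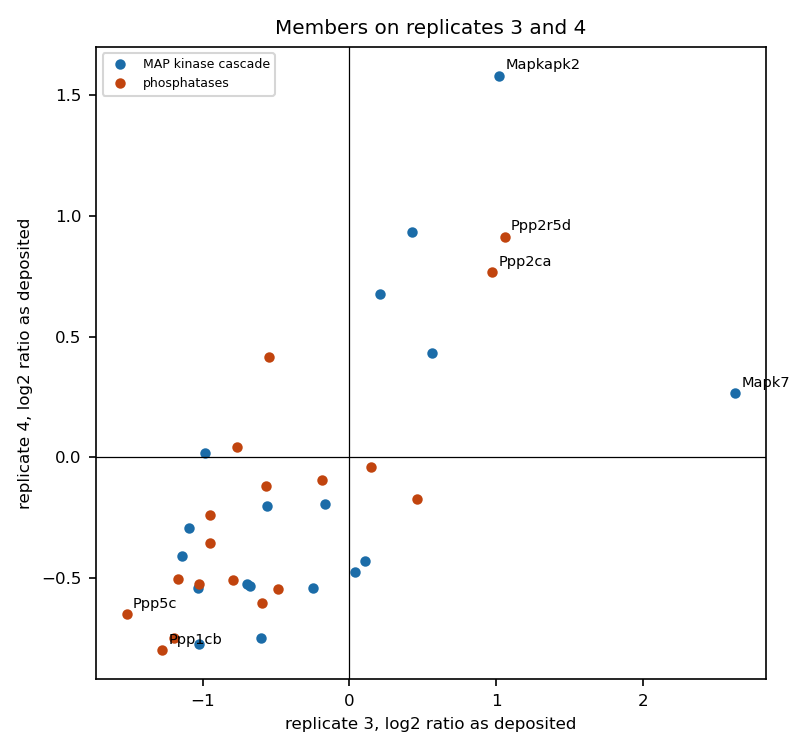
Log2 ratio as deposited on replicate 3 (horizontal axis) and replicate 4 (vertical axis) for the 36 members with both values, 1 point per probe. Most points, 22 of 36, lie in the lower left, with both values negative, and Mapkapk2, Ppp2ca and probe 6717 of Ppp2r5d lie in the upper right.

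Other genes of these pathways were counted from lists of their roles. Of 11 genes of Ras, Raf and their adaptors in the test, 4 had positive and 7 negative estimates, with a median of -0.06, and without replicates 3 and 4 the median was 0.033 with 6 positive. Of 6 phosphatases that act on MAP kinases, 4 were positive, with a median of 0.02, and 3 were positive without replicates 3 and 4. Of 18 effectors of MAP kinases, 3 were positive and 15 negative, with a median of -0.05, and 13 were positive under the turned reading. The transcription factor Creb1, 1 of the 3, was at 0.45, or 0.13 without replicates 3 and 4 and 0.03 when turned. Elk1, also a transcription factor, was at -0.03, or 0.07 without replicates 3 and 4 and 0.29 when turned. Without replicates 3 and 4, 12 of these 18 were positive. Of 22 inhibitors, partners and relatives of the phosphatases, 8 were positive and 14 negative, with a median of -0.03, and 17 of 20 were positive without replicates 3 and 4. In all 4 lists 0 genes passed in either direction, where the median over all probes was -0.03. Over all probes, 43.3% of estimates were positive as deposited, 53.0% under the turned reading and 62.6% without replicates 3 and 4.

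Marker genes of the neocortex and of neighbouring cell types were set beside these values. The table holds ratios only, so the presence of a marker in the tissue cannot be read from it. The 11 neocortex markers had a median estimate of -0.09, and medians on replicates 3 and 4 of -0.68 and 0.16. Without these arrays their median estimate was 0.095, with 9 of 11 positive. The 9 markers of the ganglionic eminence, a neighbouring source of interneurons, had a median of -0.07, and 2 of 9 were positive, or 1 of 6 without replicates 3 and 4. Of 8 meningeal and vessel markers fitted, 3 were positive as deposited, while 7 were positive under the turned reading, with a median of 0.33. The 4 microglial markers fitted had a median of -0.16, or -0.043 without replicates 3 and 4. On replicate 4, 2 of them had a value, Aif1 at -0.27 and C1qb at 2.41. On replicate 3, C1qb lay at 5.06, Aif1 at -0.50 and C1qc at -1.14. The estimate of C1qb was 1.30, or -0.24 when turned and 0.085 without replicates 3 and 4, and the other 3 estimates were negative. C1qa was not fitted and lay at 0.17, 1.24, -0.34 and 1.41 on replicates 2, 4, 5 and 6. Erythroid and choroid plexus markers had medians of -0.05 (3 genes) and 0.11 (3 genes), or 0.057 and 0.087 (2 genes) without replicates 3 and 4. No marker passed, and the part of other cell types in the members' values was not tested.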

How the data were processed

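The deposited table of log2 ratios (base assumed) was made by the authors. The sources used here do not name the scanner, the background correction, the dye normalization or why some values are blank. Gene names come from GEO's annotation of the platform. It gives a single symbol for 6269 probes, several for 6 and no symbol for 581. The targeted gene is not reported here. In limma 3.58.1 under R 4.3.3, lmFit and eBayes were run on probes valued on 2 or more arrays per orientation. The model held an intercept for the mutant and a dye term, two-sided, with Benjamini-Hochberg adjustment over all probes tested and a threshold of 0.05. The dye term equals the mutant effect under the turned reading. Separate fits used the 3 arrays of each orientation. The fit was tested on simulated data. The simulated arrays were independent, so this cannot show how the fit behaves with correlated arrays such as replicates 3 and 4.

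The members, lists and rules were chosen with earlier results of these data known. Named are all Mapk8ip and Ppp2r5 members, all catalytic subunits, 4 preset MAP kinases (Mapk8, Mapk9, Mapk10 and Mapk14), the 3 smallest p per role and members of 1 sign. Other members are named so that each is accounted for, and single values outside these rules were chosen after they were seen. The design text calls the mutants biological replicates. Alternatives were the turned reading, no dye term, centring, scaling, array weights, leaving out replicates, averaging per gene, other filters, robust moderation and a threshold of 0.1.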

Additional observations from a re-analysis of the deposited data

Results flagged for a closer look

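Of 37 named member probes, 5 had an array far from the others by Dixon's criterion, which chance meets in about 1 of 20 groups. That is 13.5%, against 9.72% of all 4958 probes tested, and 69.1% of those probes had the far value on replicate 3. Map4k4 lay at -0.98 on replicate 3, with the nearest value at -0.01. Ppp2r5e lay at -0.76 on replicate 3, with the nearest at -0.04. Mapk8 lay at 2.03 on replicate 3, with the nearest of its 4 values at -0.60. Ppp1r3c lay at -1.98 on replicate 6, with the nearest at -0.38. Probe 6717 of Ppp2r5d lay at 3.03 on replicate 2, with the nearest at 1.06.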

How the results depend on the processing

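No member passed under any alternative run on all arrays or with replicates left out of the fit of both orientations. Over all probes, 2 of 4958 passed with array weights. Of 4728 probes, 1 passed when replicates 3 and 4 were left out together, an alternative known from earlier results. In the cy3 arrays alone, 0 to 17 probes passed when a replicate was left out. Without replicate 1, 17 of the 4154 probes valued on both replicates 2 and 3 passed. Among them was probe 6717 of Ppp2r5d (2.04, n = 2, limma adjusted p = 0.030), as 1 of 38 members tested. That fit rests on 2 arrays and holds replicate 2, where the probe lay at 3.03. Without replicate 2, 0 of 37 members passed, and without replicate 3, 0 of 45. In the cy5 arrays 0 to 18 probes passed, and no member was among them. Positive members numbered 27 of 48 under the turned reading (56.2%, against 53.0% of all probes), 28 of 48 with array weights (58.3% against 58.6%), 31 of 45 without replicates 3 and 4 (68.9% against 62.6%) and 8 of 36 with values on all arrays (22.2% against 38.2%). Leaving out each replicate gave from 10 of 38 without replicate 1 (26.3% against 38.8%) to 23 of 45 without replicate 3 (51.1% against 55.7%). No paired analysis was possible because the only control is 1 pool.

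Signs of the 37 named probes changed as follows. Under the turned reading 19 changed: Ppp5c 0.12, Ppp1cb 0.065, Map3k8 0.17, Map4k4 0.18, Mapk8ip1 -0.016, Mapk14 0.17, Ppp1cc 0.090, Mapk8ip3 0.039, Ppp2r1a 0.11, Mapk9 -0.39, Ppp2ca -0.11, Ppp1r1a 0.038, Mapk8ip2 0.015, Ppp1ca 0.036, Map2k6 0.10, Ppp2r5e 0.17, Map4k1 -0.18, and probes 6717 and 6718 of Ppp2r5d -0.61 and 0.027. Without replicates 3 and 4, 19 of 35 changed: Ppp5c 0.013, Ppp1r1b -0.26, Ppp1cb 0.10, Ppp3cb 0.032, Map3k8 0.12, Map4k4 0.052, Mapk14 0.19, Ppp1cc 0.12, Mapk8ip3 0.14, Mapk6 0.11, Ppp2cb 0.019, Ppp2ca -0.25, Ppp1r1a 0.12, Ppp2r3c 0.20, Mapk8ip2 0.053, Map2k4 0.0032, Map2k6 0.31, Ppp2r5e 0.054 and probe 6718 0.0014. With array weights 14 changed: Ppp1r1b -0.13, Ppp1cb 0.039, Map3k8 0.070, Map4k4 0.036, Mapk14 0.16, Ppp1cc 0.089, Mapk8ip3 0.092, Mapk6 0.055, Ppp2ca -0.23, Ppp1r1a 0.074, Ppp2r3c 0.13, Mapk8ip2 0.020, Map2k6 0.30 and Ppp2r5e 0.036. With centred and scaled arrays 7 changed: Ppp1r1b -0.060, Mapk14 0.092, Ppp2ca -0.022, Ppp2r3c 0.010, Ppp1ca 0.046, Map2k6 0.12 and Ppp2r5e 0.0086. With arrays centred on the median Mapk14 was 0.035, Ppp1ca 0.015 and Map2k6 0.019. Averaged per gene, probes 3048 and 6718 of Ppp2r5d became 0.18.

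Leaving out each replicate in turn, the ranges that crossed 0 were -0.013 to 0.15 for Map2k5, -0.19 to 0.19 for Map2k6, -0.31 to 0.020 for Map3k8, -0.22 to 0.042 for Map4k4, -0.058 to 0.092 for Mapk14, -0.29 to 0.034 for Mapk8ip3, -0.13 to 0.10 for Ppp1ca, -0.31 to 0.023 for Ppp1cc, -0.29 to 0.024 for Ppp1r1a, -0.26 to 0.34 for Ppp1r1b, -0.065 to 0.31 for Ppp2ca, -0.28 to 0.010 for Ppp2cb, -0.36 to 0.074 for Ppp2r3c and -0.16 to 0.044 for Ppp2r5e. The causes were not tested. Mapk8ip1 changed sign only under the turned reading. Without scanner intensities, dim probes could not be told from bright ones.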

Other observations

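Among the genes upstream of the kinase relay, Grb2, the adaptor that links receptors to Ras, had the largest split between the dyes. It is named here because its values stood out. It lay at -1.53, -0.67 and -1.54 with the mutant in cy3 and at 0.11, 0.94 and 0.27 with the mutant in cy5, so that the orientations did not overlap. Its estimate was -0.40 ± 0.18 as deposited (SE, n = 6; limma adjusted p = 0.921) and 0.84 ± 0.18 under the turned reading (SE, n = 6; limma adjusted p = 0.972), and neither passed. Nfatc2, a transcription factor that calcineurin activates, lay at 2.29 and 2.09 on replicates 3 and 4. On the other 4 arrays it lay between -1.02 and -0.45. Its estimate was 0.24 ± 0.53 (SE, n = 6), or -0.22 under the turned reading and -0.74 without replicates 3 and 4.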
